A study of Arabidopsis thaliana with 12 samples.

Results

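The response of RNA levels to a water stress medium was compared between wild-type and atg5 seedlings of Arabidopsis thaliana, gene by gene. The quantity described is the difference of the responses, that is the log2 change from control medium to stress medium in atg5 minus the same log2 change in wild type. Genes entered the comparison if they were listed in both deposited tables, 1 per genotype, which left 19714 of the 20780 genes listed in either table. A positive difference means that the level in stress medium over control medium was higher in atg5 than in wild type, and a negative difference means that it was lower.

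Wild type was the accession Columbia-0 (Col-0). The atg5 line, SALK_020601C, carries an insertion in ATG5. Both genotypes were germinated from seed in liquid culture and taken as whole seedlings at 5 days. Control medium (NM) was Murashige medium with 0.5% sucrose, and the water stress medium (WSM) held the same salts and sucrose with 2.5% glycerol and 0.5% alginic acid. Glycerol enters the medium as a solute and as a carbon compound, so osmotic and metabolic effects of WSM cannot be told apart. All 4 groups were therefore 5-day seedlings on sucrose, and neither genotype was followed over time. The labels describe 12 samples, 3 per group. The count columns hold 10 libraries, with 3 of wild-type NM, 2 of wild-type WSM, 2 of atg5 NM and 3 of atg5 WSM, and 2 labelled samples were not analysed here. No source used here tells whether replicates were separate cultures, so the p-values cover the spread among these libraries only and that spread may be technical.

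Autophagy is the process by which a cell encloses its own cytoplasm or organelles in a membrane and delivers them to the vacuole for breakdown. ATG5, bound to ATG12, helps attach the ubiquitin-like protein ATG8 to membrane lipid, and plants without it cannot build normal autophagosomes. Autophagy is known in plants for recycling during starvation and for tolerance of drought and salt. Water shortage in seedlings acts largely through abscisic acid, through fast calcium, ethylene and jasmonate signals, and through transcription factors of the WRKY, ERF and C2H2 zinc finger families. The W-box, with the core TTGAC, is the element bound by WRKY factors.

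To show where the comparison rests in sequence, the start regions of 3 genes are given, from 250 bases before to 50 bases after the annotated start, read 5′ to 3′ along the gene from the TAIR10.1 reference. AT1G80440 had the largest difference among the genes of smallest p, and WRKY40 and PP2-B14 rose in both genotypes. Capitals mark the W-box core TTGAC or its reverse complement GTCAA, both strands having been searched.
AT1G80440 (chr1:30241202-30241501, plus strand): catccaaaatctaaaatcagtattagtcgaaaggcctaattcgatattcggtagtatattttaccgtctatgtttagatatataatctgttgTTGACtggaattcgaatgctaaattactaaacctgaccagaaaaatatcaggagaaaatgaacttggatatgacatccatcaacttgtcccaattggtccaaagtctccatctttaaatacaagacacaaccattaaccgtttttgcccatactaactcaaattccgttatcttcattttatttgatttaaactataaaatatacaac
WRKY40 (chr1:30383311-30383610, plus strand): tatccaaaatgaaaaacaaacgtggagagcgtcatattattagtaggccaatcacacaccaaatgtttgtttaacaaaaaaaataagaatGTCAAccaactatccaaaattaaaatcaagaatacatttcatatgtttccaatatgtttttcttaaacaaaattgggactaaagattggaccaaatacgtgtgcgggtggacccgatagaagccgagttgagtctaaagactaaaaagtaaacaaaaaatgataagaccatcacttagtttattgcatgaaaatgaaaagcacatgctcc
PP2-B14 (chr1:21062998-21063297, minus strand): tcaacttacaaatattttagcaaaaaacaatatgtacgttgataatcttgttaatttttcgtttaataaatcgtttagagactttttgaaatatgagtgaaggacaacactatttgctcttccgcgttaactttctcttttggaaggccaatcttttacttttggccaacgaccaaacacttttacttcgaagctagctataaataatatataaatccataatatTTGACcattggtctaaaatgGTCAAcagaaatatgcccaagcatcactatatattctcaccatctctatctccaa
The AT1G80440 and WRKY40 windows hold 1 core each and that of PP2-B14 holds 2. Such a match is a description of the letters, not of a bound site.

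Counts per library summed to between 8923025 and 23993704 over the 19714 genes, and 28 genes in the ribosomal RNA regions held between 18.2% and 65.2% of them. The shallowest library, atg5 WSM 1, had 3142758 counts outside those genes. Between replicate libraries, log2 levels of 13899 genes had correlations of 0.961 to 0.984 (wild type) and 0.839 to 0.929 (atg5). Levels below are in CPM, counts divided by the TMM-scaled library total and brought to one common total, and are listed in the order of the column numbers, 2, 3 and 4 for wild-type NM, 3 and 4 for wild-type WSM, 1 and 3 for atg5 NM, and 1, 2 and 3 for atg5 WSM. CPM values are not divided by gene length, so they compare libraries and not genes.

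The libraries labelled atg5 fell into 2 states at a few loci, which touches every atg5 response. ATG5 itself, listed as APG5, was at 20.2 to 30.8 CPM in the wild-type libraries and at 20.5 to 31.7 CPM in the libraries labelled atg5, so its summed count did not separate the genotypes. PREP1, a protease that degrades transit peptides, had 753 to 2668 counts in the wild-type libraries, 2 and 0 counts in atg5 NM, and 349, 4 and 2412 counts in atg5 WSM. Its neighbour ATG2, a lipid transfer protein of autophagy, was at 31.1 and 23.8 CPM in atg5 NM and 26.6 CPM in atg5 WSM 2, but at 8.67 and 6.32 CPM in atg5 WSM 1 and 3. In wild type ATG2 was at 3.13 to 10.0 CPM. PARC6, a plastid division protein beside PREP1, was at 0 counts in atg5 NM and atg5 WSM 2. It was at 2.96 and 6.87 CPM in atg5 WSM 1 and 3, and at 6.30 to 13.9 CPM in wild type. ACC2, an acetyl-CoA carboxylase encoded on another chromosome, was at 60.1 and 45.5 CPM in atg5 NM and 23.1 CPM in atg5 WSM 2. It was at 8.67 and 4.01 CPM in atg5 WSM 1 and 3, and at 1.23 to 3.14 CPM in wild type. In CPM, atg5 WSM 1 and 3 therefore sat within the wild-type range at PREP1 and ATG2, and above it at ACC2. At PARC6 atg5 WSM 1 was below that range. Library atg5 WSM 2 sat with atg5 NM at PREP1, PARC6 and ATG2, and lay below it at ACC2. What sets these states was not tested. Leaving out libraries 1 and 3 leaves 1 atg5 WSM library, whose spread is then taken from the other groups. Of 60 atg5 responses called among the genes named below, 20 were no longer called without these libraries, with edgeR adjusted p from 0.0506 to 0.338, and 0 changed sign. The 20 were UPL1, AT3G26510, AT1G50659, AT2G17930, AT1G16270, emb1507, AT1G14430, SAHH2, CYP86A8, AT4G12520, HSP17.4, HSP17.6II, MBF1C, ERF71, ASN1, PETE1, PSAE-1, OLEO2, GL3 and MYB36.

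No gene passed the test of the difference. In edgeR's quasi-likelihood test with Benjamini-Hochberg adjustment, 0 of 19714 genes (0.0%) had an adjusted p under 0.05, and the smallest adjusted p was 0.0687. At an unadjusted p under 0.05 there were 2971 genes (15.1%), 1577 with a positive difference (8.0%) and 1394 with a negative one (7.07%). The median standard error of a difference was 0.449 on the log2 scale, against 0.317 for the wild-type response and 0.319 for the atg5 response. DESeq2 called 408 genes, 256 positive and 152 negative, of which 68 were also among the 90 it called once gene length was taken into account, a setting chosen after seeing the data. Without library atg5 WSM 2, edgeR called 53 genes, 44 positive and 9 negative, and 40 of them were also called by DESeq2 on all libraries. Those 53 include PREP1, ACC2 and ATG2, and without that library the 2 states above coincide with the 2 media in atg5.

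The response itself was partly shared. In wild type 1161 genes changed (5.89%), 644 up (3.27%) and 517 down (2.62%). In atg5 1549 genes changed (7.86%), 1029 up (5.22%) and 520 down (2.64%). Both genotypes called 542 genes in the same direction (2.75%), 450 up (2.28%) and 92 down (0.467%). The shared genes were 46.7% of the wild-type calls and 35.0% of the atg5 calls. Among rises the shared part was 69.9% of the wild-type calls and 43.7% of the atg5 calls, and among falls it was 17.8% and 17.7%. The order of the genotypes depends on the fit. In the authors' deposited tables, each from a test within 1 genotype, 5440 genes were called in wild type and 1037 in atg5. The joint fit used here gives each gene a single spread over all groups. With each library left out in turn, the wild-type calls ran from 272 (without wild-type WSM 3) to 2286 (without atg5 WSM 1), the atg5 calls from 467 (without atg5 NM 3) to 2771 (without atg5 WSM 1) and the shared genes from 241 (without wild-type WSM 3) to 987 (without atg5 WSM 1). Without atg5 WSM 1 and 3 there were 1231 calls in atg5 and 730 shared genes, and the wild-type calls, which use the spread of all groups, came to 2813.

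**Figure D1:**
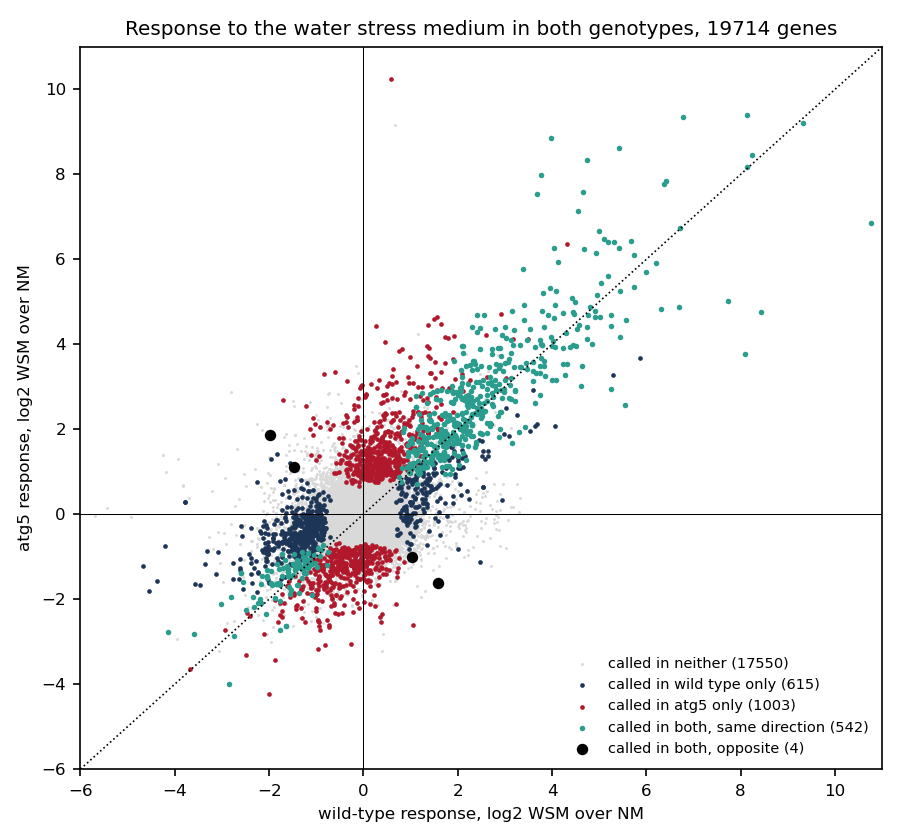
Each point is 1 of the 19714 genes, placed by its log2 fold change from NM to WSM in wild type (x axis) and in atg5 (y axis) and coloured by the edgeR calls; the dotted line marks equal responses. The 450 shared rises lie along the dotted line at the upper right, while most genes called in 1 genotype only lie nearer to the axis of that genotype, and the 4 genes called in opposite directions are the large black points.

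Over all 19714 genes the log2 responses correlated with a Pearson's r of 0.55 and a Spearman's rho of 0.333, as a description across genes, which are not independent and were measured in the same libraries. Of all genes 59.4% had the same sign in both genotypes. The 2 responses share no library, whereas the difference uses all 10.

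Fast stress regulators rose in both genotypes. Of the 24 tested genes in the list of early stress regulators, 18 rose in wild type and 21 in atg5, none fell, and 18 rose in both. Over all genes 3.27% rose in wild type, 5.22% in atg5 and 2.28% in both. The list's median response was a log2 of 3.42 in wild type and 3.38 in atg5, against 0.02 and -0.02 over all genes, and its median difference was 0.21, against 0.02 over all genes. WRKY40, a WRKY factor that restrains defence and abscisic acid responses (chr1:30383561-30385499, plus strand), was at 1.15, 1.37 and 2.56 CPM in wild-type NM, 119 and 66.7 in wild-type WSM, 1.44 and 1.17 in atg5 NM, and 90.0, 112 and 67.8 in atg5 WSM. Every WSM library was far above every NM library, and the 2 genotypes overlapped in each medium. Its log2 response was 5.73 ± 0.40 (SE; adjusted p = 5.79e-05) in wild type and 6.09 ± 0.47 (adjusted p = 9.51e-05) in atg5, and the 95% interval of the difference ran from -0.80 to 1.52. That interval is wide enough to hold a stronger response in either genotype.

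PP2-B14, a phloem protein of the F-box type (chr1:21061522-21063047, minus strand), was at 0.16, 0.10 and 0 CPM in wild-type NM and at 29.9 and 15.6 CPM in wild-type WSM. In atg5 it was at 0.07 and 0 CPM in NM, from 2 counts in all, and at 9.46, 19.6 and 17.7 CPM in WSM, a ratio of 453 with a 95% counting interval of 125 to 3740. The gene was thus close to undetected on NM in both genotypes. Its neighbour PP2-B13 had log2 responses of 6.42 ± 0.49 and 7.85 ± 0.63 (SE), and shares 63.5% of its exons with the antisense RNA AT1G56242, which had 6.37 ± 0.49 and 7.77 ± 0.64. Whether counting used strand is not given in the sources used here, so these 2 genes may carry the same reads.

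FAMT, the methyltransferase of farnesoic acid, was at 0 counts in all 3 wild-type NM libraries and at 10.5 and 9.54 CPM in wild-type WSM, at least 196-fold higher with a floor of 3 counts over the group. In atg5 it was at 0.20 and 0.10 CPM in NM and at 42.0, 11.2 and 5.19 CPM in WSM. The 3 atg5 WSM libraries span a wide range, and the 95% interval of the difference ran from -10.09 to 2.27. AT5G52750, annotated as a heavy metal transport protein, had log2 responses of 5.69 ± 0.55 and 6.43 ± 0.65 (SE), and AT3G02840, an ARM repeat protein, had 6.71 ± 0.69 and 6.75 ± 0.78. AT4G08985, a non-coding RNA that lies wholly inside the antisense strand of the ERF gene RRTF1 (AT4G34410), rose from 2 counts over the NM group in each genotype, with ratios of 741 (95% counting interval 205 to 6120) in wild type and 650 (180 to 5370) in atg5. It and RRTF1 may carry the same reads. These 8 genes were the largest shared rises by the smaller of their 2 responses.

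**Figure D2:**
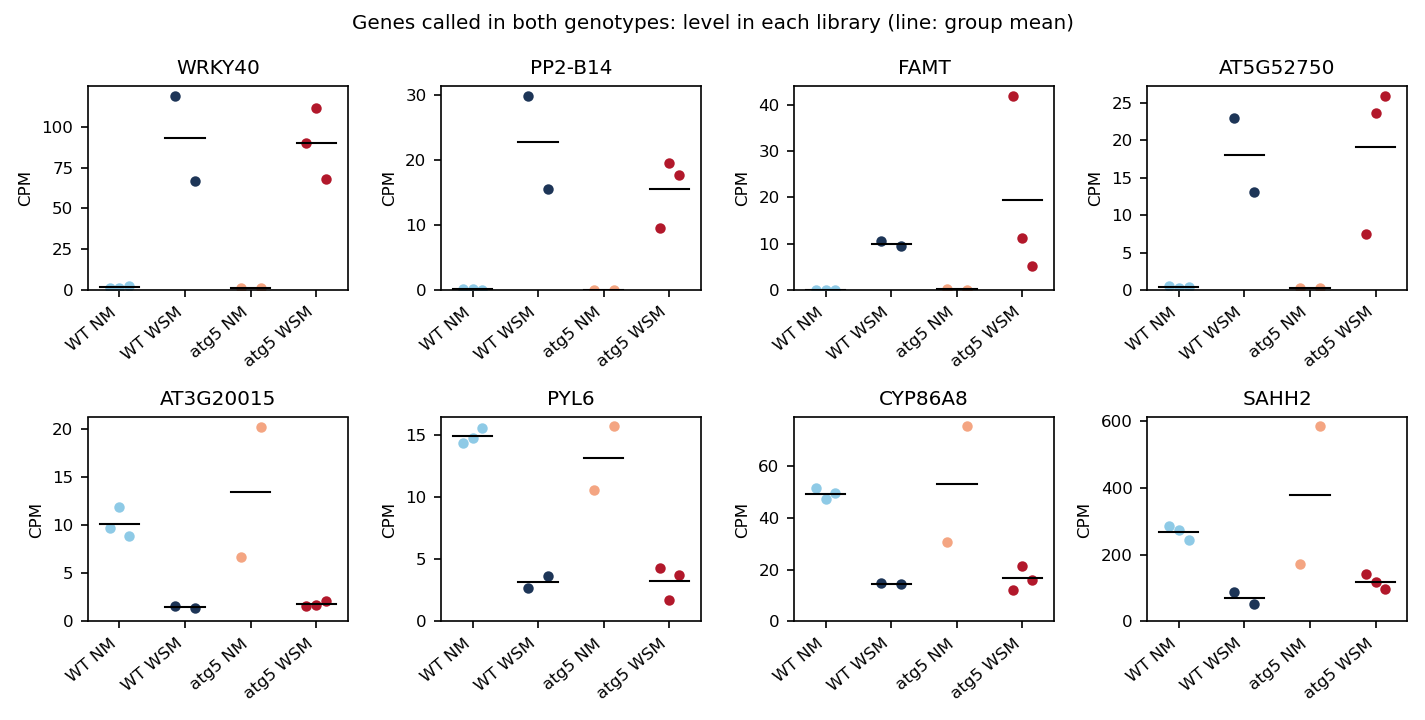
Level in each library, in CPM (y axis), of 4 genes that rose and 4 that fell in both genotypes, by group (x axis); a point is a library and a line a group mean. WSM libraries lie beyond NM libraries in both genotypes for all 8 genes, and atg5 NM 1 and 3 lie far apart for the genes that fell, as for SAHH2 at 172 and 583 CPM.

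Shared falls were fewer and smaller than shared rises. The 92 shared falls had a median log2 response of -1.56 in wild type and -1.36 in atg5, and the 450 shared rises had 2.28 and 2.61. AT3G20015, an aspartyl protease (chr3:6978477-6980523, minus strand), was at 9.73, 11.9 and 8.84 CPM in wild-type NM, 1.65 and 1.41 in wild-type WSM, 6.67 and 20.2 in atg5 NM, and 1.58, 1.68 and 2.16 in atg5 WSM. Its WSM values were alike in all 5 libraries while its atg5 NM values were far apart. It fell by a log2 of 2.73 ± 0.46 (SE) in wild type and by 2.86 ± 0.42 in atg5. PYL6, an abscisic acid receptor, fell by 2.23 ± 0.37 and 2.08 ± 0.35, and CYP86A8, a fatty acid hydroxylase of cutin synthesis, fell by 1.77 ± 0.36 and 1.66 ± 0.33.

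The other shared falls of largest size were AUF1, an F-box protein of auxin transport, AT1G14430, a glyoxal oxidase relative, SAHH2, a hydrolase of the methyl cycle, AT4G12520, a lipid transfer protein relative, and AT1G05753, a non-coding RNA that lies wholly antisense to AT1G22500. SAHH2 was at 286, 275 and 243 CPM in wild-type NM, 88.0 and 51.2 in wild-type WSM, 172 and 583 in atg5 NM, and 142, 117 and 98.1 in atg5 WSM. The lower atg5 NM library stood only a little above the highest atg5 WSM library. Its fall was 1.94 ± 0.45 (SE; adjusted p = 0.0307) in wild type and 1.67 ± 0.42 (adjusted p = 0.0341) in atg5. AUF1, AT1G14430, AT4G12520 and AT1G05753 fell by log2 values from 1.77 to 2.33 in wild type and from 1.65 to 2.72 in atg5.

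How alike a shared response was could be bounded only for some genes. The 95% interval of the difference lay within a log2 of -1 to 1 for 64 of the 450 shared rises (14.2%) and 23 of the 92 shared falls (25.0%), against 2867 of all 19714 genes (14.5%). The shared rises were therefore no more tightly bounded than genes at large. Their median difference was 0.17, and 57 of the 450 had an unadjusted p under 0.05, a rate below the 15.1% of all genes. The 2 lists were chosen by the same libraries that give the difference, so these figures describe them and test nothing.

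Start regions of the shared genes were searched for 5 motifs in 19576 windows of 300 bases. The W-box core TTGAC was in the windows of 72.4% of the 450 shared rises, 45.7% of the 92 shared falls and 50.8% of all genes. The heat shock element GAANNTTC, searched on both strands, was in 21.1%, 4.35% and 11.3%. The G-box CACGTG was in 10.7%, 5.43% and 8.64%, the DRE core CCGAC in 14.7%, 18.5% and 16.3%, and the element ACTCAT in 12.4%, 10.9% and 13.9%. The W-box core and the heat shock element thus stood above the background among the shared rises, and the other 3 motifs were within 4 percentage points of it. No test was made of these shares, and motif matches may overlap each other.

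Many jasmonate genes rose in both genotypes. Of 22 jasmonate genes, 10 rose in wild type and 11 in atg5, all 10 of the former in both, and 1 fell in atg5. The shares of all genes were 3.27%, 5.22%, 2.28% and 2.64%, in that order. The list had median log2 responses of 1.20 in wild type and 1.40 in atg5 and a median difference of 0.36. JAZ10, a repressor of jasmonate signalling, was at 3.52, 2.88 and 2.64 CPM in wild-type NM, 10.5 and 6.87 in wild-type WSM, 1.74 and 2.86 in atg5 NM, and 24.6, 12.2 and 9.47 in atg5 WSM. JAZ7 was at 0 counts in both atg5 NM libraries and averaged 2.56 CPM in atg5 WSM, at least 43-fold higher, and its 2 highest wild-type NM libraries were at 0.20 and 0.08 CPM. JAZ5 had log2 responses of 4.61 in wild type and 3.02 in atg5. Of the differences of these 3 genes none passed the test, with adjusted p from 0.31 to 0.396.

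Salicylic acid and defence genes also rose in both genotypes. Over all genes 3.27% rose in wild type, 5.22% in atg5 and 2.28% in both, and 2.64% fell in atg5. Of the 16 listed genes 8 rose in wild type and 6 in atg5, all 6 of them shared, and 1 fell in atg5. That gene was PR1, a secreted defence protein, at 0.94 and 1.84 CPM in atg5 NM and at 0.39, 0.13 and 0.31 CPM in atg5 WSM, with an adjusted p of 0.0305. In wild type PR1 was at 1.17 to 2.13 CPM in NM and at 0.62 and 0.89 CPM in WSM, and its response there was not called. The abscisic acid list was mixed, with 2 of 33 up and 3 down in wild type, 3 up and 3 down in atg5, and a median difference of 0.14. Over all genes 3.27% were up and 2.62% down in wild type, and 5.22% up and 2.64% down in atg5. The receptor PYL5 fell in wild type by a log2 of 2.09 and was at -0.68 in atg5, where the call was not made, and CYP707A2, an enzyme that breaks down abscisic acid, fell in atg5 by 1.83 and was at -0.35 in wild type. Senescence genes rose in 3 of 13 cases in wild type and 4 in atg5, and oxidative stress genes in 2 of 17 in each, with none down. The shares of all genes that rose were 3.27% in wild type and 5.22% in atg5.

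Within the early stress regulators 3 genes had the smallest p of the difference, and all 3 differences were positive. ZF2, a C2H2 zinc finger repressor, was at 5.15, 4.88 and 4.21 CPM in wild-type NM, 26.0 and 22.4 in wild-type WSM, 4.46 and 3.74 in atg5 NM, and 58.3, 45.5 and 45.9 in atg5 WSM. It rose in both genotypes, and each atg5 WSM library lay above both wild-type WSM libraries. Its difference was a log2 of 1.25 ± 0.30 (SE; adjusted p = 0.194), and 1.11 without atg5 WSM 1 and 3. ERF4, a repressor of the ERF family, rose in atg5 by 2.09 and was at 0.38 in wild type, a difference of 1.71 ± 0.46 (adjusted p = 0.200). CML37, a calcium sensor, was at 2 counts over both atg5 NM libraries, so its fitted difference of 3.85 ± 1.20 rests on a near-empty group.

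Genes with the smallest p of the difference had opposite signs in the 2 genotypes. Since no gene was called, 24 genes of smallest unadjusted p are described, with adjusted p from 0.0687 to 0.183, 13 with a positive and 11 with a negative difference of log2 1.41 to 3.85 in size. In all 24 the fitted responses had opposite signs in wild type and atg5, and in 18 of 24 the libraries of NM and WSM did not overlap in either genotype and moved opposite ways. Over all genes 926 (4.7%) had libraries apart in opposite directions. These genes were picked for their p, so the counts describe them and support nothing. In all 24 genes both atg5 NM libraries lay outside the 3 wild-type NM libraries, on the side towards wild-type WSM or beyond. The test of atg5 against wild type in NM called 5 of the 24 (29 of all genes, 0.147%), and that in WSM called 0 (7 of all genes, 0.0355%).

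**Figure D3:**
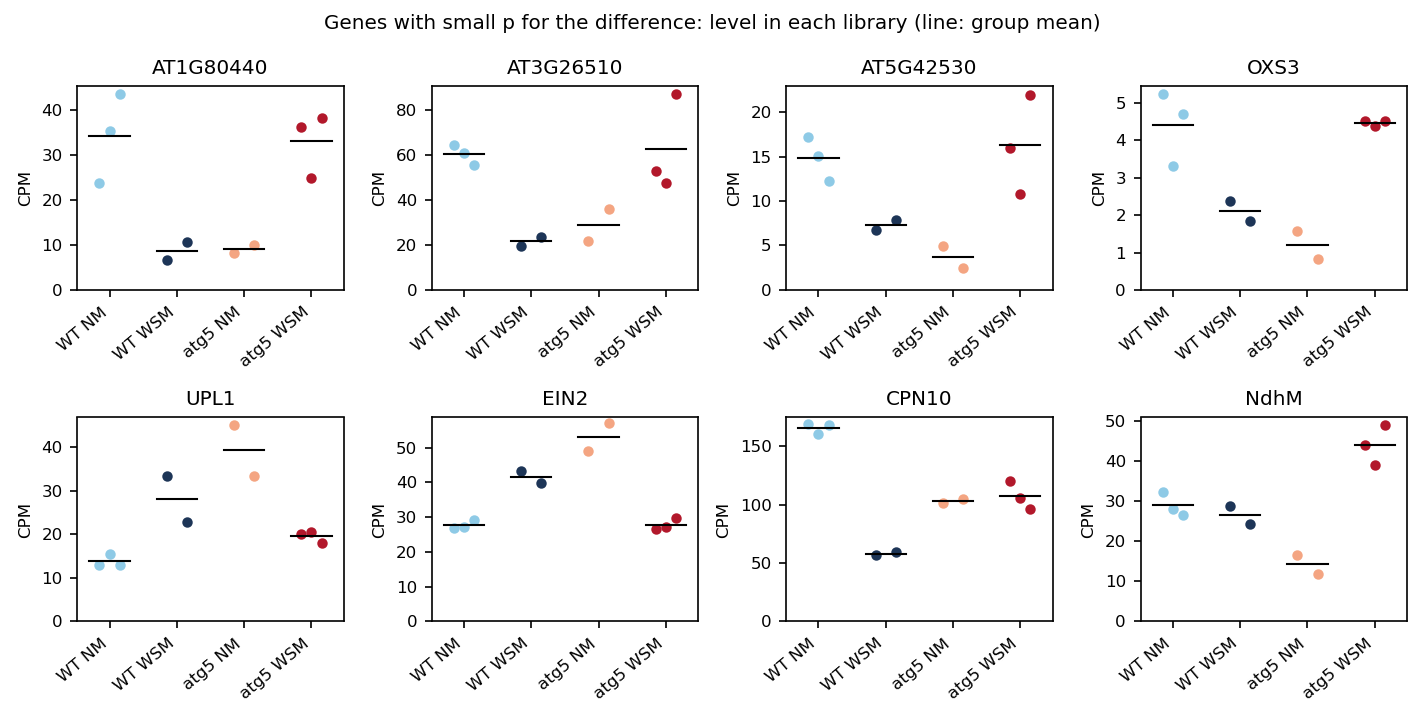
Level in each library, in CPM (y axis), of 8 of the 24 genes with the smallest p of the difference, by group (x axis); a point is a library and a line a group mean. The group means move in opposite directions between NM and WSM in all 8 panels, by little in atg5 for CPN10 and in wild type for NdhM, and atg5 NM lies nearer to wild-type WSM than to wild-type NM in all 8 panels.

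AT1G80440, annotated as a Galactose oxidase/kelch repeat protein (chr1:30241452-30243176, plus strand), was first of all genes. It was at 23.7, 35.3 and 43.5 CPM in wild-type NM, 6.69 and 10.6 in wild-type WSM, 8.24 and 9.90 in atg5 NM, and 36.3, 24.9 and 38.2 in atg5 WSM. Wild-type NM and atg5 WSM were high, the other 2 groups were low, and no library of a high group reached into a low one. It fell in wild type by a log2 of 1.98 ± 0.33 (SE; adjusted p = 0.00496), rose in atg5 by 1.87 ± 0.32 (adjusted p = 0.00624), and differed by 3.85 ± 0.46 (95% interval 2.84 to 4.86; adjusted p = 0.0687). The difference was 3.79 once gene length was taken into account and 3.44 without atg5 WSM 1 and 3.

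Only 4 genes were called in both genotypes in opposite directions, namely AT1G80440, AT3G26510, UPL1 and AT1G50659. AT3G26510, with an octicosapeptide/Phox/Bem1p domain, fell in wild type by 1.48 ± 0.31 (SE) from 64.3, 61.1 and 55.4 CPM to 19.6 and 23.5, and rose in atg5 by 1.12 ± 0.31 from 21.8 and 36.0 CPM to 53.0, 47.6 and 87.3. Its small partner AT3G26512 lies wholly antisense to it and showed the same pattern, with a difference of 2.76 ± 0.48, and the 2 may carry the same reads. Without atg5 WSM 1 and 3 the rise of AT3G26510 in atg5 was 0.72 (adjusted p = 0.193). UPL1, a ubiquitin ligase with a long transcript, was at 13.0, 15.4 and 13.1 CPM in wild-type NM, 33.4 and 22.8 in wild-type WSM, 45.2 and 33.3 in atg5 NM, and 20.1, 20.5 and 18.0 in atg5 WSM. It rose in wild type and fell in atg5, with a difference of -2.03 ± 0.32 that shrank to -0.54 once length was taken into account, and its fall in atg5 was -0.93 (adjusted p = 0.11) without atg5 WSM 1 and 3. AT1G50659 is a non-coding RNA with 89.5% of its exons antisense to AT1G50660, and was at 0.49 to 0.80 CPM in wild-type NM and at 4.62 and 4.03 CPM in atg5 NM. Its atg5 response went from -1.62 to -1.36 (adjusted p = 0.11) without those libraries, so that AT1G80440 alone of the 4 kept its atg5 call.

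The other positive differences were mostly in short genes, and the 13 positive genes together had a median exonic length of 1228 bases against 1747 over all genes. The other 10, with a median of 1116 bases, include OXS3, which takes part in tolerance of oxidative stress, AT2G44130, a second kelch repeat gene, ECS1, a wall protein linked to disease resistance, BEE2, a bHLH factor of brassinosteroid responses, NdhM, a subunit of the chloroplast NDH complex, and CPN10, a co-chaperonin. OXS3 was at 5.24, 3.32 and 4.71 CPM in wild-type NM, 2.37 and 1.86 in wild-type WSM, 1.57 and 0.83 in atg5 NM, and 4.53, 4.38 and 4.52 in atg5 WSM. It rose in atg5, and its difference was 2.94 ± 0.53 (SE), or 2.39 once length was taken into account. CPN10 was at 169, 160 and 169 CPM in wild-type NM, 56.9 and 59.4 in wild-type WSM, 102 and 105 in atg5 NM, and 121, 106 and 96.3 in atg5 WSM. CPN10 fell in wild type by 1.51 ± 0.20 (SE) and was at 0.06 ± 0.19 in atg5, whose libraries of both media lay between those of wild type. NdhM rose in atg5, from 16.7 and 11.9 CPM to 44.1, 39.0 and 49.1, and was at 24.3 to 32.3 CPM in all wild-type libraries.

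Positive differences without a described role were AT5G42530 (3.14 ± 0.51, SE), AT5G60680 (3.26 ± 0.58), AT5G38980 (1.95 ± 0.35) and AT1G27290 (1.54 ± 0.29). None of the 13 lost over 50% of its size once length was taken into account. AT2G44130 lies wholly antisense to AT2G44140, so its difference of 2.96 ± 0.56 is uncertain.

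Negative differences were mostly in long genes, with a median exonic length of 4554 bases. EIN2, the membrane protein through which ethylene signals pass, was at 27.0, 27.3 and 29.2 CPM in wild-type NM, 43.3 and 39.9 in wild-type WSM, 49.0 and 57.1 in atg5 NM, and 26.6, 27.1 and 29.9 in atg5 WSM. It fell in atg5 by 0.93 ± 0.18 (SE; adjusted p = 0.0114) and was at 0.58 ± 0.18 in wild type (adjusted p = 0.0848). Its difference of -1.51 ± 0.26 became -0.67 once length was taken into account. CSI1, which links cellulose synthase to microtubules, went from -1.41 to -0.32, AT2G17930, a FAT domain kinase relative, from -1.77 to -0.33, emb1507, a spliceosomal helicase, from -1.51 to -0.37, and AT1G16270, a kinase, from -1.53 to -0.73. In all, 6 of the 11 negative differences lost over 50% of their size, and all 24 genes kept their sign.

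SUA, a splicing factor, had -1.77 ± 0.32 (SE) and DUO3, a factor of the pollen germline, had -2.08 ± 0.36, and both rose in wild type. AT5G03668 and TRM28 overlap on opposite strands on chromosome 5 and fell in atg5 by 2.16 ± 0.29 and 1.58 ± 0.23. Without atg5 WSM 1 and 3 the 13 positive differences were between 1.42 and 3.44 and the 11 negative ones between -2.93 and -1.42. DESeq2 called 23 of the 24, and 13 of the 24 when length was taken into account.

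Genes called in 1 genotype only leaned the same way in the other. In wild type alone 192 genes rose and 423 fell, and 80.2% and 83.2% of them had the same sign in atg5. In atg5 alone 577 rose and 426 fell, and 77.8% and 76.1% had the same sign in wild type. A call in 1 genotype and none in the other is not a difference, and none of these differences was called. The wild-type rises had median responses of 1.29 in wild type and 0.61 in atg5, and the wild-type falls had -1.29 and -0.44. The atg5 rises had 0.38 in wild type and 1.42 in atg5, and the atg5 falls had -0.41 and -1.27. GTB1 and HAC1, a transcription elongation factor and a histone acetyltransferase, both long, rose in wild type by 0.93 ± 0.22 and 1.00 ± 0.25 (SE) and had differences of -1.59 ± 0.30 and -1.69 ± 0.35, or -0.59 and -0.61 once length was taken into account.

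Gene length ordered the differences over the whole transcriptome. Across 19714 genes the difference correlated with exonic length at a Spearman's rho of -0.551, the wild-type response at 0.376 and the atg5 response at -0.25. In the shortest of 5 length classes, 17 to 1108 bases, the median difference was 0.58, and it went through 0.32, 0.05 and -0.19 to -0.60 in the longest class, 2572 to 16614 bases. Of the 1394 negative differences at an unadjusted p under 0.05, 980 were in the longest class, and of the 1577 positive ones 829 were in the shortest. The trend was also seen library by library. Levels in the longest class stood below those in the shortest, each set against the gene's mean over libraries, by a log2 of -0.34, -0.21 and -0.24 in wild-type NM, and above them by 0.39 and 0.23 in wild-type WSM and by 0.44 and 0.13 in atg5 NM. In atg5 WSM the 3 libraries were at -0.38, 0.11 and -0.11. With a trend per library removed, the rho of the difference was -0.03, edgeR again called 0 genes, with a smallest adjusted p of 0.0861, and 1457 genes were at an unadjusted p under 0.05. RNA quality was not tested.

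**Figure D4:**
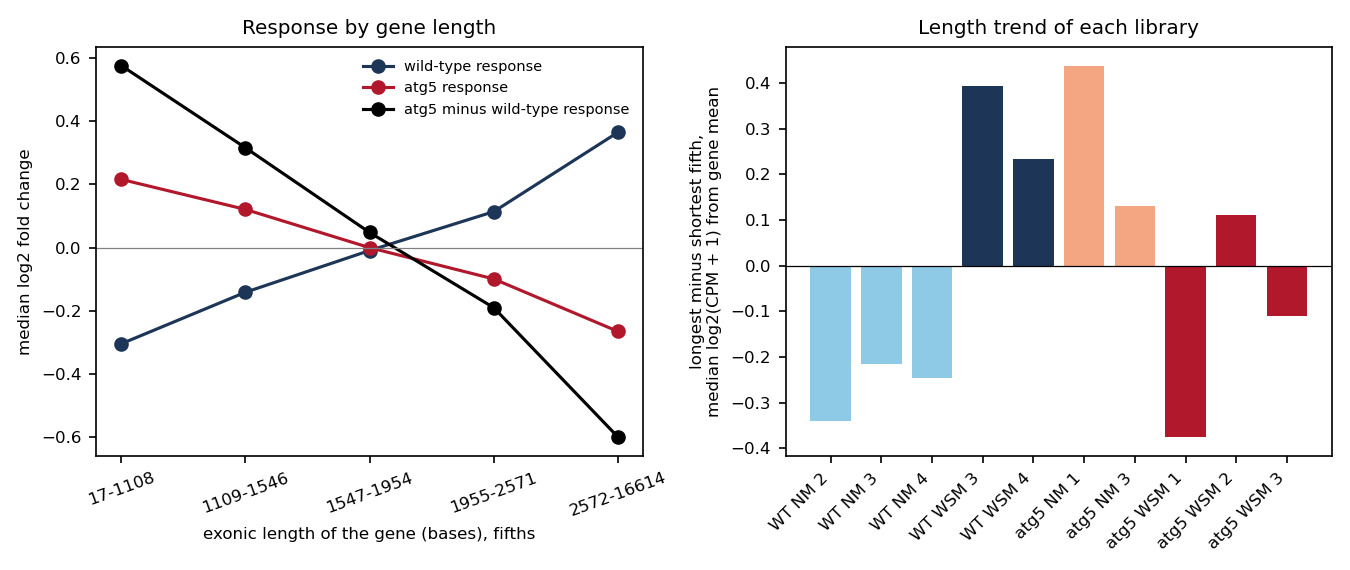
Left, the median log2 fold change (y axis) of genes in 5 classes of exonic length in bases (x axis), for the wild-type response, the atg5 response and their difference. Right, the median of log2(CPM + 1) minus the gene's mean over libraries in the longest class minus that in the shortest class, for each library, coloured by group. The wild-type line runs up with length and the atg5 line down, and wild-type NM and WSM libraries have opposite signs.

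Nuclear genes of photosynthesis had positive differences almost throughout. Of 33 nuclear photosynthesis genes, 32 had a positive difference, against 10043 of all 19714 genes. Their median difference was 0.92, against 0.02 over all genes. At an unadjusted p under 0.05 there were 6, all positive. Over all genes 15.1% had such a p, and 8.0% had it with a positive difference. None of the 33 was called in wild type, and 2 rose in atg5, where 5.22% of all genes rose. The list medians were -0.04 in wild type and 0.94 in atg5. PETE1, the electron carrier plastocyanin, was at 150, 165 and 176 CPM in wild-type NM, 102 and 151 in wild-type WSM, 55.2 and 66.8 in atg5 NM, and 115, 115 and 195 in atg5 WSM. The low group was atg5 NM, and the atg5 WSM libraries lay within or just above the wild-type range. PETE1 and PSAE-1, a photosystem I subunit, rose in atg5 by 1.22 and 1.44, and PSBR of photosystem II had -0.83 in wild type and 0.66 in atg5. The list's median difference was 0.66 once length was taken into account, 0.71 without atg5 WSM 1 and 3, and 0.51 (without atg5 WSM 3) to 1.33 (without wild-type WSM 4) with each library left out in turn. In whole seedlings fewer green cells and less RNA per cell cannot be told apart.

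Of 31 autophagy genes tested, 1 rose and 2 fell in wild type, where 5.89% of all genes were called, and 1 rose and 0 fell in atg5, where 7.86% were. At an unadjusted p under 0.05 there were 8 positive and 2 negative differences, 32.3% of the list against 15.1% of all genes. The median difference was 0.20, or 0.40 without atg5 WSM 1 and 3, and ran from 0.14 (without atg5 WSM 2) to 0.39 (without atg5 WSM 3) with each library left out. The 3 genes of smallest p all encode ATG8, the protein that ATG5 helps to attach to membranes. ATG8F was at 33.9, 27.1 and 28.0 CPM in wild-type NM, 21.6 and 31.6 in wild-type WSM, 15.8 and 19.3 in atg5 NM, and 39.6, 41.0 and 49.5 in atg5 WSM. It rose in atg5 by 1.31, with every atg5 WSM library above every other library, and its difference was 1.46 ± 0.33 (SE; adjusted p = 0.194). APG8A fell in wild type by 0.97 and was at 0.19 in atg5, a difference of 1.16 ± 0.34, and ATG8E had a difference of 1.54 ± 0.49. These 3 differences were 1.38, 1.08 and 1.46 without atg5 WSM 1 and 3.

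Protective proteins of dry and heated cells had positive differences, and the list medians moved with the libraries used. Of 16 LEA genes, 0 were called in wild type and 4 rose in atg5, where 5.22% of all genes rose. All 16 differences were positive, against 10043 of all 19714 genes. Their median was 0.87, or 0.68 once length was taken into account. These genes were short, with a median exonic length of 1029 bases against 1747 over all genes. LEA4-5 was at 23.1, 21.9 and 35.3 CPM in wild-type NM, 22.3 and 19.0 in wild-type WSM, 3.52 and 2.72 in atg5 NM, and 6.11, 10.0 and 9.47 in atg5 WSM. It rose in atg5 and stayed there below all wild-type libraries. Its difference was 1.85, and 2.05 without atg5 WSM 1 and 3. The LEA median was 0.01 without those libraries, and ran from 0.35 (without atg5 WSM 1) to 1.303 (without atg5 WSM 2) with each library left out. In the water deficit list, which shares members with the LEA list, 2 of 22 rose and 1 fell in wild type, and 6 rose and 1 fell in atg5. Over all genes 3.27% rose and 2.62% fell in wild type, and 5.22% rose and 2.64% fell in atg5. The list's median difference was 0.63, or 0.03 without atg5 WSM 1 and 3, 0.26 without atg5 NM 1 and 0.35 without atg5 WSM 1. LTI30, a dehydrin, had a difference of 1.32 ± 0.36 (SE), and GolS2, a galactinol synthase, of 2.35 ± 0.87. These were 1.13 and 2.61 without atg5 WSM 1 and 3. GolS2 was at 2 and 4 counts in atg5 NM, so its difference rests on a near-empty group.

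Small heat shock proteins were tested for 5 members, of which 0 were called in wild type and 3 rose in atg5, where 5.22% of all genes rose. Their median responses were 0.75 in wild type and 3.43 in atg5. HSP17.6A was at 6.05, 9.09 and 10.8 CPM in wild-type NM, 9.52 and 19.8 in wild-type WSM, 3.25 and 7.18 in atg5 NM, and 28.6, 20.8 and 171 in atg5 WSM. Library atg5 WSM 3 was far above the rest. HSP17.4 and HSP17.6II showed the same, at 123 and 97.7 CPM in atg5 WSM 3 against 25.8 CPM or less in the other 9 libraries. The median difference was 2.07, 0.43 without atg5 WSM 3, and 0.25 without atg5 WSM 1 and 3. Among 22 heat shock chaperones and factors 3 rose in wild type and 5 in atg5, 1 fell in atg5, and the median difference was 0.18. Over all genes 3.27% rose in wild type, and 5.22% rose and 2.64% fell in atg5. HSFB2A, a repressing heat shock factor, rose in both by 0.83 and 1.93, and MBF1C, a coactivator of the heat response, rose in atg5 by 2.31.

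Endoplasmic reticulum chaperones leaned the other way. Of 20 genes 0 changed in wild type, 1 rose and 2 fell in atg5, and 6 had a negative difference at an unadjusted p under 0.05. The shares of all genes were 5.89%, 5.22%, 2.64% and 7.07%, in that order. The list's median was -0.29, and it was -0.13 once length was taken into account, -0.43 without atg5 WSM 1 and 3, -0.57 without atg5 NM 3 and -0.49 without atg5 WSM 3. BIP1, the luminal Hsp70, was at 168, 138 and 189 CPM in wild-type NM, 191 and 165 in wild-type WSM, 285 and 360 in atg5 NM, and 154, 101 and 135 in atg5 WSM. The high group was atg5 NM. BIP1 fell in atg5 by 1.31, its difference was -1.42 ± 0.34 (SE; adjusted p = 0.194), and -1.78 without atg5 WSM 1 and 3. The stress factor BZIP17 and the calreticulin CRT1b had differences of -1.36 ± 0.38 and -0.92 ± 0.31. Cell division genes had a median difference of -0.62, with 1 of 21 down in each genotype. Over all genes 2.62% fell in wild type and 2.64% in atg5. CYCB1;1, a mitotic cyclin, and the replication helicase subunits MCM5 and MCM2 had differences of -0.99, -0.78 and -0.94, and the list's median was -0.33 once length was taken into account and -0.30 without atg5 NM 1.

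Of 20 carbon starvation genes 0 were called in wild type and 7 rose in atg5, where 5.22% of all genes rose. The median difference was 0.39, and 0.12 without atg5 WSM 1 and 3. It was 0.18 without wild-type WSM 3, 0.21 without atg5 NM 1, 0.62 without atg5 WSM 2 and 0.15 without atg5 WSM 3. The starvation factor bZIP1 was at 7.77, 8.30 and 10.4 CPM in wild-type NM, 7.36 and 8.91 in wild-type WSM, 3.95 and 3.69 in atg5 NM, and 15.4, 10.6 and 9.35 in atg5 WSM. It rose in atg5 and its difference was 1.72 ± 0.39 (SE; adjusted p = 0.194), or 1.13 once length was taken into account. ASN1, an asparagine synthetase, had a difference of 3.49 ± 1.14 that was 1.40 without atg5 WSM 1 and 3. Of 15 hypoxia genes 2 rose in wild type and 4 in atg5, where 3.27% and 5.22% of all genes rose. Their median difference was 0.41, and it was -0.89 without atg5 WSM 1 and 3. ERF71, an ethylene response factor of the low oxygen response, was at 69.8, 19.8 and 124 CPM in atg5 WSM and at 2.24 to 10.7 CPM in the other 7 libraries.

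Some aquaporins fell in each genotype, with 7 of 22 down in wild type, 3 in atg5 and 2 in both. Over all genes 2.62% fell in wild type, 2.64% in atg5 and 0.467% in both. The median response of the aquaporins was -1.12 in wild type and -0.43 in atg5. Of the 22 differences 21 were positive, against 10043 of all 19714 genes. The median difference was 0.72, or 0.52 once length was taken into account. The median was 0.48 without atg5 WSM 1 and 3, 0.34 without atg5 NM 1 and 1.23 without atg5 NM 3. TIP2, a water channel of the vacuole membrane, was at 1529, 1171 and 1053 CPM in wild-type NM, 187 and 292 in wild-type WSM, 757 and 1516 in atg5 NM, and 621, 522 and 535 in atg5 WSM. It fell in wild type by 2.38, and in atg5 it was at -1.02 with an adjusted p of 0.0841. Its difference of 1.36 ± 0.48 (SE) had an adjusted p of 0.257. PIP1;4, of the plasma membrane, had a difference of 0.94 ± 0.32.

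**Figure D5:**
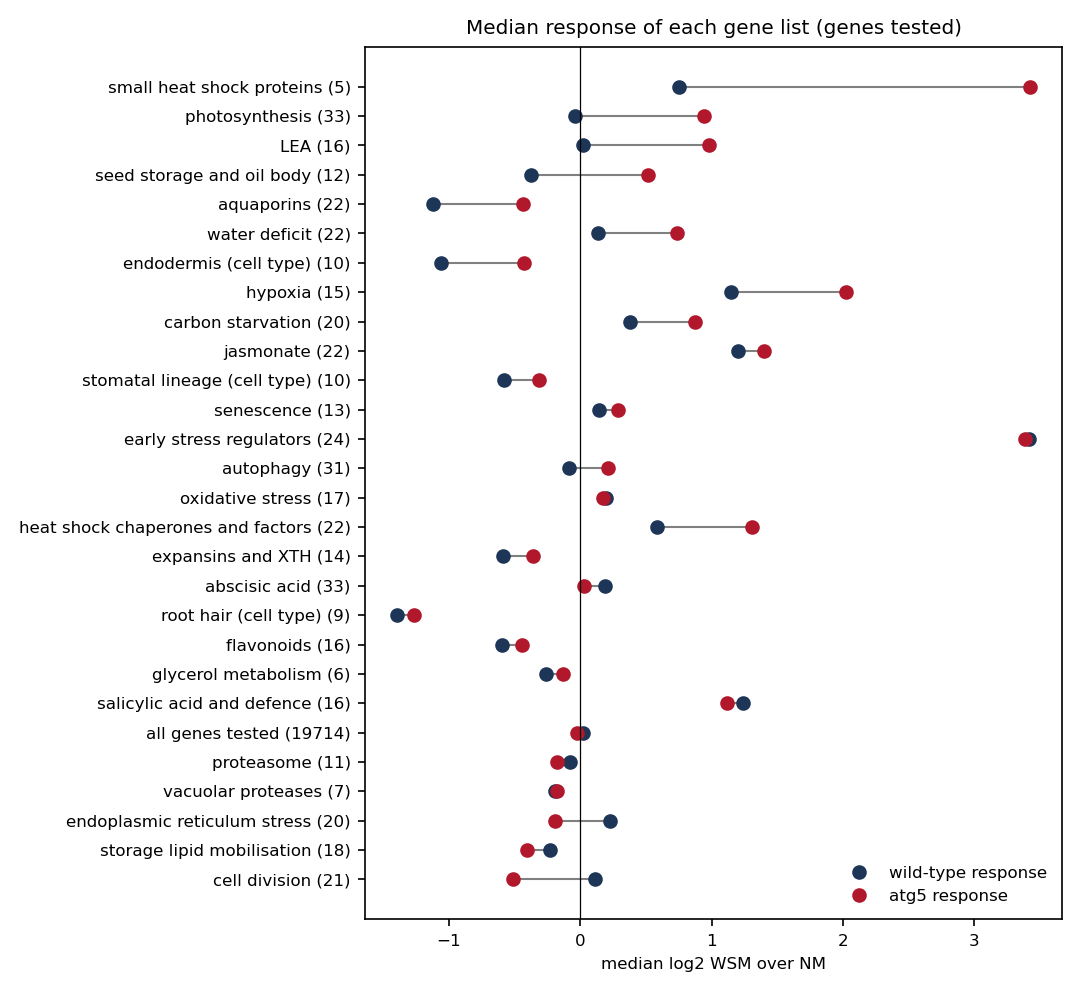
Median log2 fold change from NM to WSM (x axis) of each gene list (y axis, number of genes tested) in wild type and in atg5, ordered by the lists' median difference. Points lie close together for the early stress regulators, at 3.42 and 3.38, and far apart for the small heat shock proteins, at 0.75 and 3.43; medians are descriptions without a test.

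With each library left out, the median difference of the early stress regulators ran from -0.08 (without atg5 WSM 2) to 0.56 (without wild-type WSM 3). That of the jasmonate genes ran from 0.14 (without wild-type NM 4) to 0.55 (without atg5 NM 3), and that of the hypoxia genes from -0.08 (without atg5 NM 1) to 1.14 (without atg5 NM 3).

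In the remaining lists the calls were too few to set them apart from all genes, of which 5.89% were called in wild type and 7.86% in atg5. Among the 12 seed storage and oil body genes 0 were called in wild type and 1, the oil body protein OLEO2, fell in atg5. Their summed level was 1502 to 2228 CPM in the wild-type libraries against 16.4 to 194.9 CPM in the libraries labelled atg5. None of the 12 was at 0 in any library. Among 18 genes of storage lipid mobilisation 0 were called in wild type and 1 fell in atg5. LACS6, a peroxisomal acyl-CoA synthetase, had a difference of -0.88 ± 0.28 (SE). Glycerol metabolism, with 6 genes, and vacuolar proteases, with 7, had no calls, and of 11 proteasome genes 1 rose in atg5. Of 16 flavonoid genes 1, the bHLH factor GL3, fell in atg5, and of 14 expansins and XTH genes 1 rose in wild type, and 1 rose and 1 fell in atg5.

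Markers of root and leaf cell types were read as a check of tissue. The 9 root hair markers had 0 calls, with summed levels of 210.5 to 328.6 CPM in wild-type NM, 84.8 to 101.1 in wild-type WSM, 479.7 to 517.7 in atg5 NM and 38.5 to 570.2 in atg5 WSM. Of 10 endodermis markers 1 fell in wild type, and 1, the Casparian strip factor MYB36, rose in atg5, with sums of 119.6 to 257 CPM over all libraries. Of 10 stomatal lineage markers 1, EPF2, fell in wild type, with sums of 26.4 to 71.1 CPM. Of these markers MUTE alone was at 0 in some library. The part of tissue proportions in the responses above was not tested.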

How the data were processed

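Gene-level RNA counts of 10 seedling libraries in 4 groups (wild type and atg5, NM and WSM) were analysed. A stranded mRNA kit and paired reads were used, per the labels' protocols. TAIR10, Bowtie2, bedtools, DESeq2 and bcl2fastq are named in the submitters' processing notes, with no version. The authors deposited 2 tables, 1 for each genotype, that hold raw gene counts by library and, per the file headers, log2 fold changes and adjusted p-values of their own test. Another 10 normalized columns were not used. Columns name genotype, medium and a number unlike that in the titles, so a column was assigned to a group and to no single sample.

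The 19714 genes in both tables (20002 and 20492 listed) were fitted in 1 model of 4 groups with edgeR 4.0.16 (limma 3.58.1, R 4.3.3), TMM factors and the quasi-likelihood test, with a biological coefficient of variation of 28.2% and 6 residual degrees of freedom. An adjusted p under 0.05 (Benjamini-Hochberg, over all genes) was a call. SE was derived from the quasi-likelihood F, and 95% intervals used the moderated degrees of freedom. Both rest on the spread among the 10 libraries, whose totals ran from 8923025 to 23993704 counts. Counting intervals and floors of 3 counts cover counting error only. Where gene length was taken into account, a lowess trend (span 0.3) of each library with exonic length was removed as an offset. Tested on simulated counts for the 19714 genes, the difference test recovered 60% of 100 genes changed by a log2 of 2 and 97% of 100 changed by a log2 of 4, with 15 false calls. The changed genes were drawn above a floor of level and changed in atg5 WSM only. All other counts were drawn independently around a single mean per gene, without a length trend or the states at PREP1. These rates therefore need not hold for the libraries analysed.

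Members and lists (27) were chosen with earlier results of these data known. Named genes were the 24 of smallest p of the difference with a mean of at least 1 CPM, 8 shared rises and 8 shared falls of largest smaller response with at least 5 CPM, up to 4 genes of each kind called in 1 genotype with the smallest p of the difference, and up to 3 per list. List members with little response are given as counts. A PREP1 library is an atg5 WSM library with at least 100 PREP1 counts. Alternatives were RLE factors, low count filters, DESeq2 1.42.0, the column number as a block, length offsets, a fold threshold, and leaving out rRNA region genes, PREP1 libraries or each library. DESeq2 with length offsets was added after seeing the data. Names, positions and lengths came from the RefSeq annotation of TAIR10.1, which matched all 20780 identifiers. The W-box, G-box, heat shock element, DRE core and ACTCAT were counted on both strands.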

Additional observations from a re-analysis of the deposited data

Results flagged for a closer look

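For 18 of the 24 genes of smallest p, every NM library lay apart from every WSM library in both genotypes, and the direction was opposite in wild type and atg5. The difference itself was tested for each with edgeR's quasi-likelihood test and none had an adjusted p under 0.05. The positive log2 differences were 3.85 for AT1G80440, 3.14 for AT5G42530, 2.60 for AT3G26510, 2.76 for AT3G26512, 3.26 for AT5G60680, 2.71 for ECS1, 1.95 for AT5G38980, 2.94 for OXS3 and 2.96 for AT2G44130. The negative ones were -2.03 for UPL1, -1.51 for EIN2, -3.19 for AT1G50659, -2.08 for DUO3, -1.77 for AT2G17930, -1.77 for SUA, -1.53 for AT1G16270, -1.41 for CSI1 and -1.51 for emb1507. Over all genes 926 (4.7%) had such libraries. The 24 genes were picked for the p of this difference, so the count of 18 describes them and supports nothing. Once length was taken into account, UPL1 was at -0.54, EIN2 at -0.67, AT2G17930 at -0.33, AT1G16270 at -0.73, CSI1 at -0.32 and emb1507 at -0.37. AT3G26510 and its antisense partner AT3G26512 may carry the same reads.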

How the results depend on the processing

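The main filter removed none of the 19714 genes, so the setting without a filter repeated the main fit. In edgeR with all libraries the count of called differences was also 0 with RLE factors, a mean of at least 1 CPM and no rRNA region genes. It stayed at 0 with length offsets, the replicate block and a fold threshold. It was 408 with DESeq2 and 90 with DESeq2 and length offsets, and 0 to 53 with each library left out, 53 without atg5 WSM 2. HR4 (2.82, adjusted p = 0.0418) was called without atg5 WSM 1 and ANL2 (-3.55, adjusted p = 0.0269) without atg5 NM 1. Calls in wild type (1161) were 2171 with DESeq2, 247 with a fold threshold of log2 1 and 2813 without the PREP1 libraries. Calls in atg5 (1549) were 2659 with DESeq2, 2338 with DESeq2 and length offsets, and 317 with the fold threshold. Shared genes (542) were 833, 840 and 190 in those 3 settings, opposite genes (4) were 23, 8 and 0, and the 87 shared genes whose interval lay within a log2 of 1 were 143 with DESeq2 and 169 with DESeq2 and length offsets. Opposite genes were 6 at a mean of at least 1 CPM or without the PREP1 libraries. With each library left out, wild-type calls ran from 272 to 2286, atg5 calls from 467 to 2771, shared genes from 241 to 987, opposite genes from 1 to 21 and bounded genes from 9 to 221. The cause of these changes was not tested, other than that fewer libraries entered. Deviations of same-numbered libraries from their group means correlated at -0.31 and -0.01 in atg5 and at 0.12 and 0.21 in wild type. In a group of 2 libraries the deviations mirror each other, so these values cannot decide whether the column number pairs libraries. A replicate block by that number gave 0 differences, 360 wild-type, 538 atg5, 242 shared, 1 opposite and 10 bounded genes. Leaving out 1 library where a group has 2 leaves a lone sample whose spread is assumed to be that of the other groups. Of 68 gene differences followed over the settings only that of WRKY40 reversed, from 0.36 to -0.095 without wild-type NM 4, and it reached 0.838 without wild-type WSM 3. Of 22 named genes that changed alike in both genotypes, 12, WRKY40 among them, had a difference whose sign turned in at least 1 setting. The smallest differences that could pass are limited by the median SE of 0.449.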

Other observations

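The authors' deposited tables, each from a test within 1 genotype, give another view of the shared response. At an adjusted p under 0.05 in the authors' deposited tables, 568 genes were up in both, 122 were down in both and 17 were opposite, out of 5440 called in wild type and 1037 in atg5. In the authors' deposited tables the order of the genotypes is thus the reverse of the joint fit, where atg5 had 1549 calls and wild type 1161. The joint fit gives each gene a single spread over all groups. Among the 288 genes listed only for wild type, the authors' deposited table called 17 up and 27 down. Among the 778 listed only for atg5, the authors' deposited table called 31 up and 2 down, and no difference can be given for these genes.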
